A study of Mus musculus with 5 samples.

Results

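Within the common myeloid progenitor (CMP) library of mouse bone marrow, 397 of 7312 cells (5.43%, exact 95% interval 4.92 to 5.97%) carried at least 2 unique molecular identifiers (UMIs, 1 per captured RNA molecule) of Il7r and Ebf1 together. These cells are called members below. The rule used only the counts of those 2 genes in each cell, so the levels of Il7r and Ebf1 in members are a description of the choice and support nothing. A cell had to hold at least 500 detected genes and 1000 UMIs, with no more than 10% of its UMIs in mitochondrial genes. Members were set beside 772 CMP cells with no UMI of Il7r or Ebf1 and at least 3 of Dntt (Dntt cells), and beside the remaining 6143 CMP cells. Across the 5 libraries of the series 42104 cells passed the same limits.

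The study profiled sorted progenitors of wild-type Balb/C mice, 8 to 12 weeks old, with 1 library of lymphoid-primed multipotent progenitors (LMPP), 1 of CMP and 3 of granulocyte-monocyte progenitors (GMP). The cells came from crushed leg bones, were enriched on c-Kit beads and were sorted as c-Kit-positive cells negative for a lineage cocktail that included B220, CD4 and CD8. LMPP were sorted as Sca-1-positive, CD34-positive and Flt3-positive, CMP as Sca-1-negative and CD34-positive with low CD16/32, and GMP as Sca-1-negative and CD34-positive with high CD16/32. No treatment or engineered allele is given, and neither the number of mice per library nor pooling is stated in the sources used here.

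Il7r encodes the receptor chain through which interleukin-7 supports early lymphocyte progenitors. Ebf1 encodes a transcription factor required for B cell development, and its targets include components of the B cell receptor and of the surrogate light chain that a pre-B cell pairs with its new heavy chain. Dntt encodes terminal deoxynucleotidyl transferase, which adds bases at immunoglobulin and T cell receptor joints and is switched on early in lymphoid priming. CMP are known for myeloid and erythroid output, and the classical CMP gate left out cells bearing the interleukin-7 receptor; the gate described for these libraries names neither that receptor nor, for CMP, Flt3.

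The CMP library held 90067195 UMIs over 7389 barcodes, and the other libraries between 93770259 and 137141095. Between 13 and 21 barcodes of the CMP library also appeared in another library. Members had a median of 13416 UMIs per cell, Dntt cells 12848 and remaining cells 10033, so the sets differed in depth. Levels are therefore given as CPM, the UMIs of a gene per 1000000 summed UMIs of a set, and shares of cells after thinning every cell to 5000 UMIs. A search for cells resembling simulated doublets marked 9.32% of members, 11.5% of Dntt cells and 5.06% of remaining cells. With a single CMP library there is no replicate of a set, so no test was made. Intervals given with folds and shares are 95% intervals and cover counting error only.

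The label of lymphoid cells was checked against Dntt, which chose the Dntt cells but not the members. Dntt was detected in 381 of 397 members at full depth, with a median of 26 UMIs per cell and a highest value of 135. It was also detected in 27.6% of erythroid cells (defined below). In remaining cells, from which the Dntt cells had been removed, the share was 32.5%. Per cell, Dntt ran from 0 CPM through a median of 1861 to a highest value of 6881. Among members, 193 cells held Il7r without Ebf1 (Il7r-only members), 171 held both genes and 33 held Ebf1 without Il7r, so 204 were Ebf1 members. Il7r had a median of 3 UMIs per member and at most 16, while Ebf1 had a median of 1 and at most 49. The 250 bases before the annotated start of Il7r are chr15:9529877-9530126 on the minus strand, and those before Dntt are chr19:41029025-41029274 on the plus strand (RefSeq, GRCm38.p6).

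Around the threshold the summed level of Dntt formed a gradient rather than a step. Dntt stood at 124 CPM in the 6555 cells with a sum of 0, at 597 in the 360 cells with a sum of 1, at 1416 in the 96 cells with a sum of 2, at 1920 at sums of 3 to 4 (128 cells) and at 2320 at sums of 5 or more (173 cells). Cells just outside the rule thus had an intermediate Dntt level as a summed set. At full depth, Dntt was detected in 38.7%, 64.7%, 96.9%, 94.5% and 96.5% of cells in these bins. Summed levels cannot tell a mix of cells with and without Dntt from an intermediate level in each cell. Cd79a, the signalling subunit of the B cell receptor, read 0.854, 1.28, 6.01, 12.8 and 199 CPM over the same 5 bins. Vpreb3, a protein of the pre-B cell receptor assembly, read 0.599, 0.366, 0.668, 1.03 and 98.1 CPM. Both B lineage genes were thus concentrated in the bin of highest Il7r plus Ebf1 counts. Mpo, the myeloperoxidase of neutrophil and monocyte granules, read 1911, 1970, 1965, 1542 and 1382 CPM, a difference of less than 1.5-fold between any 2 bins. Kit, whose product was used in the sort, read 66.1, 51.5, 28.7, 34.9 and 34.6 CPM.

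**Figure D1:**
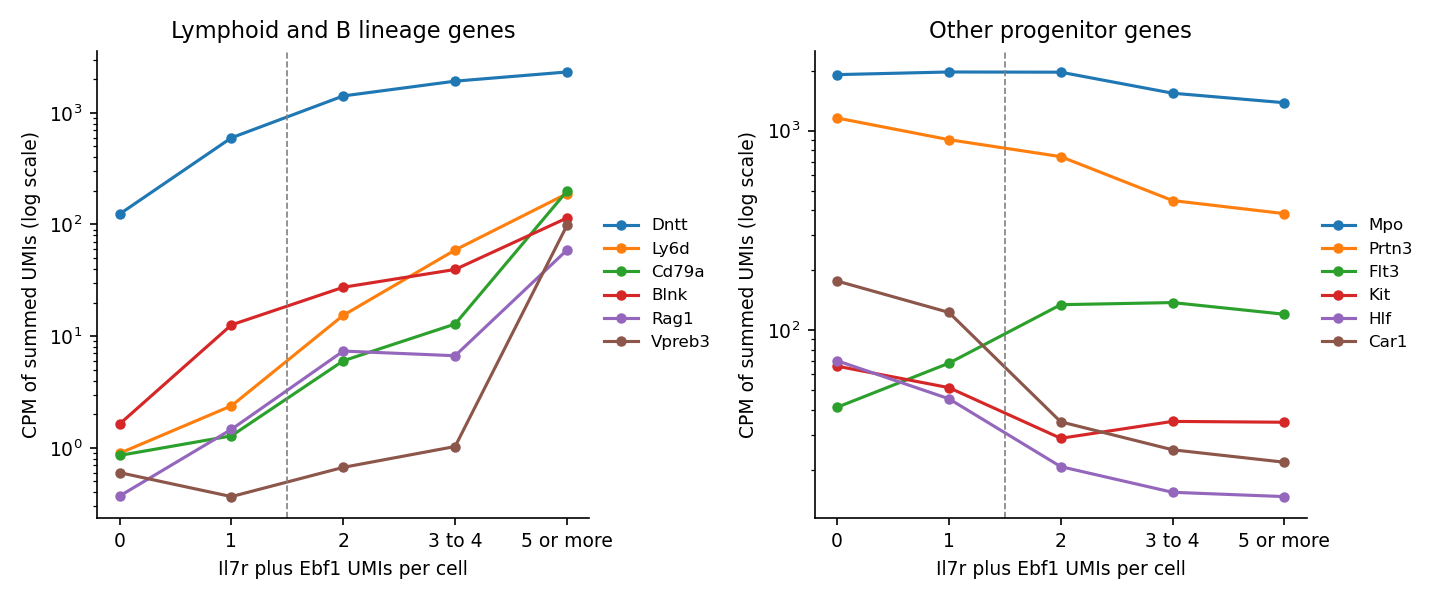
CPM of summed UMIs (log scale) of 12 genes in CMP cells grouped by their Il7r plus Ebf1 UMIs, with the dashed line at the threshold for members. Dntt climbs from 124 to 2320 CPM, Cd79a and Vpreb3 are highest in the last bin (199 and 98.1 CPM), and Mpo stays between 1382 and 1970 CPM.

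The same rule was applied to every library. It found 361 of 8033 LMPP cells (4.49%, 4.05 to 4.97%), and 4, 6 and 5 cells in the 3 GMP libraries (mean 0.0563% ± 0.0109, SD, n = 3). At 5000 UMIs per cell the shares were 2.92% in CMP (190 of 6505 cells, 2.53 to 3.36%) and 2.71% in LMPP (189 of 6964 cells, 2.35 to 3.12%), with intervals that overlapped. Each GMP library then kept 1 cell. Dntt over whole libraries read 278 CPM in CMP, 178 in LMPP and between 0.428 and 0.716 in GMP. Il7r read 17.1, 17.9 and between 0.0876 and 0.149 CPM in the same order. Both CMP and LMPP thus stood far above each GMP library.

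**Figure D2:**
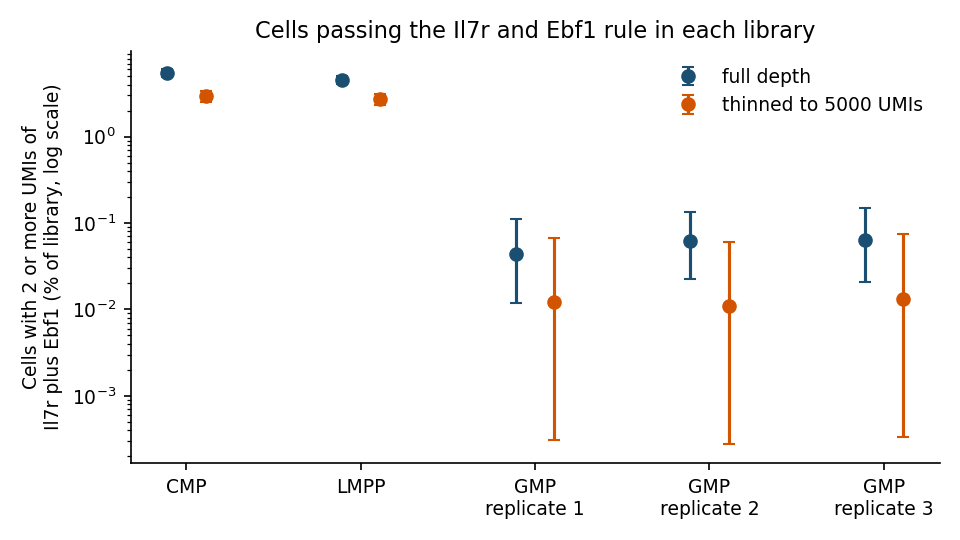
Share of cells with at least 2 Il7r plus Ebf1 UMIs in each of the 5 libraries (log scale), at full depth and after thinning each cell to 5000 UMIs; bars are exact 95% intervals. CMP (5.43%) and LMPP (4.49%) lie close together, and the GMP libraries lie between 0.0438 and 0.0638%.

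Against the remaining CMP cells, members held more RNA of early lymphoid and B lineage genes. The filter of 20 CPM, reached in whichever set was higher, left 5856 genes, of which 171 (2.92%) were at least 2-fold higher in members and 129 (2.20%) at least 2-fold lower; both limits are used throughout. Of 17 lymphoid-primed genes, 14 reached 20 CPM, and 8 of them were past 2-fold higher and 0 lower (median log2 ratio 1.31 against 0.02 over the 5856 genes). Ly6d, a surface protein that marks B-biased lymphoid progenitors, read 105 CPM in members and 0.842 in remaining cells (125-fold, 95.7 to 165). It came from 95 member cells. Rag1, a subunit of the recombinase that cuts antigen receptor genes, read 29.6 against 0.359 CPM (82.6-fold, 54.6 to 130). Notch1, the receptor that directs T lineage choice, read 130 against 21.4 CPM, and Flt3, a cytokine receptor of lymphoid and dendritic progenitors, 129 against 33.2 CPM. Satb1, a chromatin organiser of lymphoid progenitors, read 170 against 58.3 CPM, and Ccr9, a thymus-homing chemokine receptor, 27.7 against 2.86 CPM. Dntt read 1971 against 75.1 CPM, but the rule had removed the Dntt cells from that comparison set, so this ratio is only a description. That removal also bears on the other lymphoid-primed genes. Their list summed to 2220 CPM in members, 1798 in Dntt cells and 1083 in remaining cells. With all non-members as the comparison, 150 of 5845 genes were at least 2-fold higher and 121 at least 2-fold lower.

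B lineage genes had high ratios. Of 14 listed, 9 reached 20 CPM, and 7 of those were past 2-fold higher (median log2 ratio 3.1). Cd79a read 92.2 CPM in members against 0.911 (101-fold, 78.4 to 133), in 88 of 397 member cells. Vpreb3 read 43.2 against 0.483 CPM (89.5-fold, 62.8 to 131) from 36 members, and Igll1, the lambda5 part of the surrogate light chain, 25.9 against 0.607 CPM (42.6-fold, 30.3 to 61.0) from 20 members. Blnk, an adaptor of B cell receptor signalling, read 69.1 against 1.90 CPM and was present in 172 members. Ighm, the mu heavy chain locus, was more broadly spread, at 459 against 77.2 CPM in 368 members. Vpreb1 (29.2 against 3.39 CPM) has a near-identical copy in the genome, so its count is uncertain. Pax5, the factor that fixes B cell identity, was at 12 CPM. Ms4a1, which encodes CD20, had 0 UMIs among 6106272, which allows up to 0.491 CPM, and 0 of the 11 mature lymphocyte and plasma cell genes reached 20 CPM. The Cd79a, Vpreb3 and Igll1 transcripts therefore occurred in a set where these mature cell genes were at 0 or under that limit.

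Windows upstream of 3 of these B lineage genes are shown because, of the 9 B lineage genes with sequence, these are the 3 that held a match to an EBF motif; Pax5, Vpreb1, Blnk, Pou2af1, Cd72 and Lef1 held none. Each runs 5′ to 3′ on the gene's strand over the 250 bases before the annotated start (RefSeq, GRCm38.p6). Capitals mark the EBF core CCCNNGGG, which reads the same on both strands, or the shorter site GGGAAT with its reverse complement ATTCCC; both motifs share GGG and can overlap.
Cd79a, chr7:24897247-24897496, plus strand: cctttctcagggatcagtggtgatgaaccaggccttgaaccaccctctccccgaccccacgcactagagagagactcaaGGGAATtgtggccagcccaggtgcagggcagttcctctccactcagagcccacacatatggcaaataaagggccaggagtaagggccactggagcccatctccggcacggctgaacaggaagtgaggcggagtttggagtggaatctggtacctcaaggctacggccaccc
Vpreb3, chr10:75948050-75948299, plus strand: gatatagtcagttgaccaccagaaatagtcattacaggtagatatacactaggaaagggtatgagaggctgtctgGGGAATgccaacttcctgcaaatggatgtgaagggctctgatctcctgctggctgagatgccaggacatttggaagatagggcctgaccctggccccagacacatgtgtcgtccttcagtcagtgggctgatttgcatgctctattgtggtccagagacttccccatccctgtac
Igll1, chr16:16863986-16864235, minus strand: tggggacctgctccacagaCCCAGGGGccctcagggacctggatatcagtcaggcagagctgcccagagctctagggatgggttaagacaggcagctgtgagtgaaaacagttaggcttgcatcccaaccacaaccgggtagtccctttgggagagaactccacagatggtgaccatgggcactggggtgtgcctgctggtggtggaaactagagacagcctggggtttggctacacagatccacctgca
The shorter site began 171 bases before the Cd79a start and 175 bases before the Vpreb3 start, and the core 231 bases before the Igll1 start. The 9 of 14 B lineage genes with sequence had 12 windows, of which 3 held either motif. Over all 32851 windows of this length 21.9% held either motif, 11.8% the core and 11.4% the shorter site. A match describes letters and is not a binding measurement.

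Several other genes with high ratios are not classic B cell genes. Tmem121 read 131 CPM in members against 4.25 (30.9-fold, 27.1 to 35.4), in 251 members. Arpp21, a phosphoprotein known from early lymphocytes and neurons, read 74.5 against 3.56 CPM. Cmah, which encodes a sialic acid hydroxylase, read 93.3 against 4.19 CPM. Cox6a2, a muscle form of a cytochrome oxidase subunit, read 165 against 10.5 CPM, Myl4, an atrial myosin light chain, 83.9 against 5.48 CPM, and Bfsp2, known from the eye lens, 71.6 against 5.74 CPM. The heavy-chain variable segments Ighv1-77 (196 against 11.6 CPM) and Ighv1-85 (90.4 against 5.74 CPM) were also among the 12 highest ratios. They belong to a large family of similar copies, so which segment the reads came from is uncertain.

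Genes of T, natural killer and innate lymphoid cells were fewer. Of 18 listed, 5 reached 20 CPM and 4 were past 2-fold higher. Lck, a kinase of T cell receptor signalling, read 55.2 against 6.66 CPM in 181 members, and Id2, an inhibitor of E proteins needed by innate lymphoid cells, 39.6 against 7.01 CPM. Trbc2 read 27.0 against 3.50 CPM and is nearly identical to Trbc1, so their split is uncertain. Rora, a nuclear receptor of innate lymphoid cells, read 22.8 against 6.11 CPM. Cd3e, an invariant chain of the T cell receptor complex, read 0.655 CPM (4 UMIs), and Cd3g 1.47 CPM. Of 11 dendritic cell genes, 5 reached 20 CPM and 2 were past 2-fold higher, namely Irf8 (266 against 129 CPM) and the class II gene H2-Aa (35.9 against 14.5 CPM). Siglech, a plasmacytoid dendritic cell receptor, read 5.08 against 0.290 CPM.

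Genes of the other lineages were lower in members. Of 7 erythroid genes at 20 CPM or more, 6 were past 2-fold lower, among them Car1, a carbonic anhydrase of red cell precursors (26.0 against 194 CPM, 7.44-fold, 6.37 to 8.76), and Gata1 (8.35 against 39.2 CPM). Of 4 megakaryocyte genes 3 were lower. Pf4, a platelet chemokine, read 71.7 against 470 CPM, yet 1 cell held 51.6% of the member UMIs, and without that cell the level was 34.8 CPM. Both mast cell and basophil genes that reached 20 CPM were lower (Cpa3 38.3 against 126 CPM). Of 7 stem and multipotent genes 3 were lower: Hlf (16.4 against 68.6 CPM), Mecom (6.22 against 28.2 CPM) and Gata2 (19.7 against 105 CPM), transcription factors of primitive cells. Apoe, a lipid carrier, read 96.0 against 573 CPM, and Dach1 7.37 against 50.5 CPM. Myct1 (9.50 against 50.8 CPM), Sdsl (16.1 against 89.0 CPM) and Muc13, a mucin (16.9 against 87.6 CPM), complete the 8 lowest ratios.

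Granulocyte-monocyte genes did not move as one. Of 15 listed, 11 reached 20 CPM, and 5 of those were past 2-fold lower in members: Prtn3 (492 against 1207 CPM), Elane (98.8 against 245 CPM), Ctsg (235 against 509 CPM), Ms4a3 (6.22 against 32.8 CPM) and Cebpa (11.6 against 27.1 CPM). The first 3 encode proteases of azurophil granules, and Cebpa a factor of granulocyte fate. Mpo differed by only 1.20-fold (1.17 to 1.22), at 1576 CPM in members and 1888 in remaining cells. Per member cell Mpo had a median of 1044 CPM, with 611 and 1663 at the quartiles, against a median of 1610 CPM per Dntt cell.

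Droplet libraries hold free RNA, so the myeloid UMIs of members were read against erythroid cells (at least 5 UMIs of Klf1, Car1 and Ermap together), counting in both only cells with at least 5000 UMIs. In those the median depth before thinning was 13411 UMIs in erythroid cells and 13871 in members. At 5000 UMIs, at least 1 Mpo UMI was found in 95.9% of members (93.3 to 97.7%) and in 67.2% of erythroid cells. At least 5 Mpo UMIs were found in 58.7% of members (53.5 to 63.8%), 74.3% of Dntt cells, 47.3% of remaining cells and 5.58% of erythroid cells. The Mpo level of members thus lay above that of erythroid cells by both measures. For at least 1 Prtn3 UMI the shares were 58.2% in members and 54.4% in erythroid cells, with overlapping intervals. By detection alone, members thus lay near erythroid cells for Prtn3, and Elane was likewise at 15.03% and 12.1%. Whether erythroid cells make these transcripts themselves was not tested. Both Dntt and Mpo were detected in 90.7% of members (332 of 366 cells) and 8.51% of erythroid cells.

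Members with B lineage transcripts held less Mpo than the other members. At least 2 UMIs over Cd79a, Vpreb3, Igll1, Vpreb1 and Pax5 were found in 51 of 366 members at 5000 UMIs (13.9%), in 0.135% of Dntt cells, 0.111% of remaining cells and 0.279% of erythroid cells. Of those 51 cells, 49 held Dntt, 24 held Flt3 and 8 held Kit. At least 1 Mpo UMI was in 47, a measure that most erythroid cells also pass. At least 5 Mpo UMIs were in 14 of the 51 (27.5%, 15.9 to 41.7%), against 184 of 288 members with no UMI of the 5 genes (63.9%, 58.0 to 69.4%) and 5.58% of erythroid cells. At full depth, the 34 members with 10 or more UMIs of the 5 genes had a median of 7 Mpo UMIs and 946 CPM of Mpo, or 525 CPM without the 1 cell that held 234 Mpo UMIs. Erythroid cells, with no cell left out, read 372 CPM. The Mpo level of these 34 cells thus lay above that of erythroid cells with and without their top cell. Leaving out that cell was chosen after the values had been seen. The 47 members with 2 to 9 such UMIs read 1371 CPM and the 316 with fewer 1664 CPM. Without the cells marked as doublet-like, 360 of 6875 cells (5.24%) were members. The part of doublets in these counts was not tested.

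**Figure D3:**
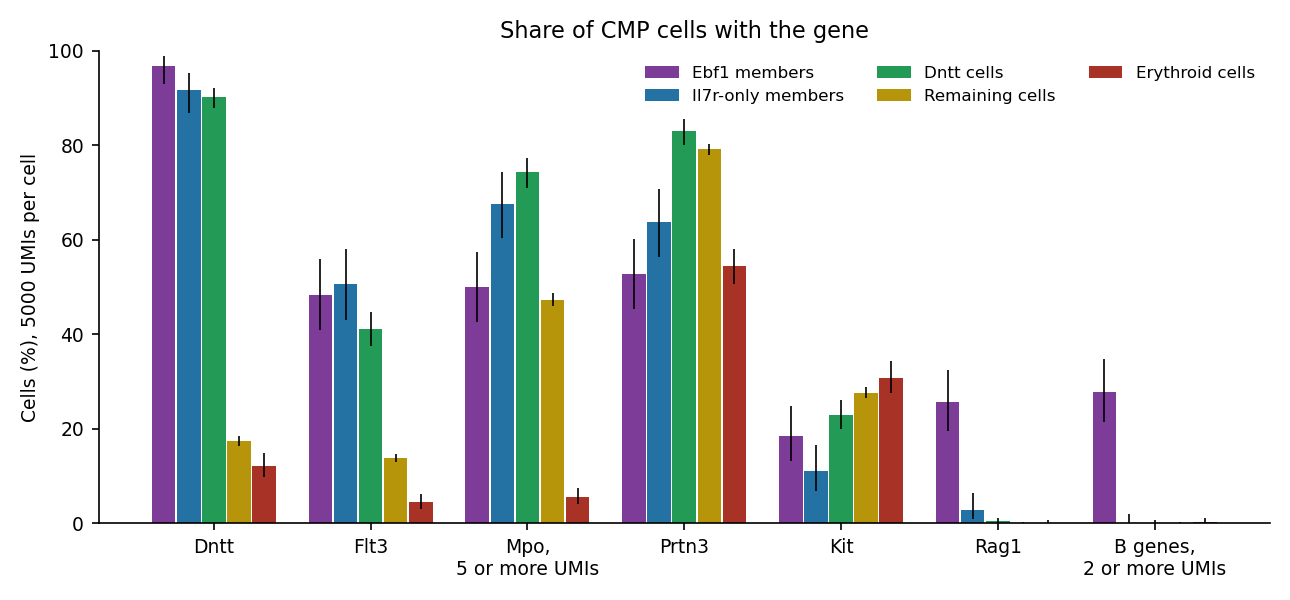
Share of CMP cells with the named gene after thinning each cell to 5000 UMIs, in Ebf1 members, Il7r-only members, Dntt cells, remaining cells and erythroid cells; bars are exact 95% intervals. At least 5 Mpo UMIs were found in 50% of Ebf1 members, 67.6% of Il7r-only members and 5.58% of erythroid cells, while at least 2 B gene UMIs were found in 27.7%, in 0 of 182 cells (which allows up to 1.65%) and in 0.279%.

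Dntt cells without Il7r or Ebf1 were the nearest comparison. Of 5825 genes, 64 (1.10%) were at least 2-fold higher in members and 37 (0.635%) at least 2-fold lower. Lymphoid priming genes mostly stood close: of 14 lymphoid-primed genes, 3 were past 2-fold higher, and Flt3 read 129 against 104 CPM, Satb1 170 against 149 CPM and Ccr9 27.7 against 21.7 CPM. The 3 that passed were Ly6d (105 against 1.93 CPM, 54.3-fold, 35.6 to 87.3), Rag1 (29.6 against 0.964 CPM, 30.7-fold, 16.8 to 62.7) and Lax1, an adaptor of lymphocytes (25.9 against 12.5 CPM). Of 9 B lineage genes, 5 were past 2-fold higher and 0 lower. Cd79a read 92.2 against 0.701 CPM (131-fold, 66.3 to 306) and Blnk 69.1 against 5.17 CPM. The rule chose members partly on Ebf1 and Dntt cells for its absence, so this difference is only a description. The B lineage list summed to 1287 CPM in Ebf1 members, 715 in Il7r-only members and 473 in Dntt cells. Of 5 genes of T, natural killer and innate lymphoid cells, 4 were also past 2-fold higher and 0 lower. That list summed to 362 CPM in members against 204 in Dntt cells. Ets1, a lymphocyte transcription factor, read 45.4 against 13.9 CPM. Ccl5 read 94.2 against 22.6 CPM, from 33 member cells of which 1 held 27.8% of the UMIs.

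On the lower side, members differed from Dntt cells in genes of primitive and myeloid cells. Hlf read 16.4 against 69.4 CPM (4.24-fold lower, 3.44 to 5.27) and Mecom 6.22 against 23.5 CPM. Of 11 granulocyte-monocyte genes, 2 were past 2-fold lower, Cebpa (11.6 against 29.7 CPM) and Csf3r, the receptor for granulocyte colony-stimulating factor (10.97 against 25.9 CPM). Mpo read 1576 against 2082 CPM. Wfdc17 (49.3 against 152 CPM), the chemokine gene Ccl9 (33.4 against 95.6 CPM), Serpina3g (30.5 against 86.1 CPM), Car2 (60.6 against 160 CPM), Neurl3 (23.1 against 57.2 CPM), Ndrg1 (23.2 against 55.1 CPM) and Ier3 (262 against 590 CPM) were the other 7 lowest ratios. Lmo2, a partner of stem and erythroid factors, read 148 against 312 CPM.

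Members divided by their own rule genes differed past 2-fold in few genes, among them 6 of 10 B lineage genes. Of 5835 genes, 54 (0.925%) were at least 2-fold higher in the 204 Ebf1 members than in the 193 Il7r-only members, and 13 (0.223%) at least 2-fold lower. This excess of higher genes did not hold with cells thinned to 5000 UMIs (341 higher and 352 lower), and by the mean over cells the counts were 82 and 38. Cd79a read 189 CPM in Ebf1 members and 1.27 in Il7r-only members (149-fold, 58.0 to 550), Igll1 52.9 against 0.634 CPM, and Rag1 56.2 against 4.75 CPM (11.8-fold, 6.97 to 21.6). Vpreb3 had 264 UMIs in Ebf1 members and 0 in Il7r-only members, which makes it at least 94.1-fold higher at a limit of 3 counts in the set. Pax5 read 24.7 CPM against 0. Foxo1, a factor that acts with Ebf1 in B cell specification, read 34.2 against 5.71 CPM, and Ly6d 189 against 26.3 CPM. Of 16 lymphoid-primed genes 5 were past 2-fold higher in Ebf1 members (Ly6d, Rag1, Foxo1, Lax1 and Rag2) and 0 lower. Dntt read 2211 against 1746 CPM, Flt3 114 against 144 CPM, and the B lineage gene Ighm 463 against 455 CPM. Mpo read 1394 and 1746 CPM, and of 9 granulocyte-monocyte genes 0 passed 2-fold in either direction.

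The LMPP library, from which no CMP member was drawn, gave the same order for these genes. Cd79a read 120 CPM in 235 LMPP cells with Ebf1 and 1.57 in 126 with Il7r alone, Vpreb3 97.4 and 0.524 CPM, and Igll1 58.0 and 0 CPM. Rag1 read 48.6 and 3.67 CPM there, and Ly6d 257 and 100 CPM. With 1 library on each side this is a description of values and not a test. The order did not extend to Tcf7, at 1.35 CPM with Ebf1 and 1.05 with Il7r alone, and Rora was at 6.07 and 9.96 CPM.

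Of 7 genes of T, natural killer and innate lymphoid cells that reached 20 CPM, 3 were past 2-fold lower in Ebf1 members and 0 higher, against 0.223% and 0.925% of all genes. Over the 18 listed, 8 read higher in Ebf1 members and 9 lower, and their sums were 315 CPM in Ebf1 and 406 in Il7r-only members. The 3 were Rora, Tcf7 and Zbtb16, and Lck (62.3 against 48.5 CPM) and Trbc2 (28.8 against 25.4 CPM) stood close. Ccl5, a chemokine of T, natural killer and myeloid cells, read 179 CPM in Il7r-only members against 3.39, in 26 cells. Rora read 40.6 against 3.73 CPM, Tcf7, a factor of T and innate lymphoid development, 29.5 against 3.39 CPM, and Zbtb16, which encodes the innate lymphocyte factor PLZF, 24.4 against 5.08 CPM. Trbc1 read 71.3 against 12.2 CPM, and Bcl2, a survival gene, 198 against 82.0 CPM. Few cells carried these values, so members were further split, after the values had been seen, by at least 3 UMIs over Tcf7, Rora, Zbtb16 and Gata3.

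That split found 18 members (4.53%), 17 of them Il7r-only, with a median of 7795 UMIs. They held 545 of the 575 Ccl5 UMIs of all members, in 13 cells, with Id2 at 472 CPM against 25.1 in the 299 members with neither this signature nor 2 B gene UMIs. Bcl2 stood at 551 against 143 CPM. Il7r read 431 against 201 CPM, which is a description only, because the rule chose members on it. The 299 members were also deeper, with a median of 13745 UMIs. Il18r1, a cytokine receptor chain of innate lymphoid cells, was at 83.3 against 8.72 CPM. Thy1 read 9.26 against 9.14 CPM, and Icos and Il2rb had 2 UMIs each in the 18 cells. Cpa3, of the mast cell and basophil list, read 509 against 21.0 CPM and was found in 13 of the 18. Mpo was detected in 15 of the 18, at 880 against 1693 CPM. Dntt was detected in 8 of the 18 cells and Flt3 in 3, compared with 294 and 223 of 299. Cd3e had 0 UMIs in the 18 cells and Cd3g 9. By contrast, 81 members held at least 2 B gene UMIs, 77 of them Ebf1 members. Dntt was detected in 80 of these, against 27.6% of erythroid cells at full depth. A single cell was in both subsets. In LMPP the same split found 6 of 361 cells, and 72 with 2 B gene UMIs. Among CMP cells outside the members and Dntt cells, 78 of 6143 (1.27%) had 3 or more UMIs of the 4 factors, and these held Ccl5 at 157 CPM.

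**Figure D4:**
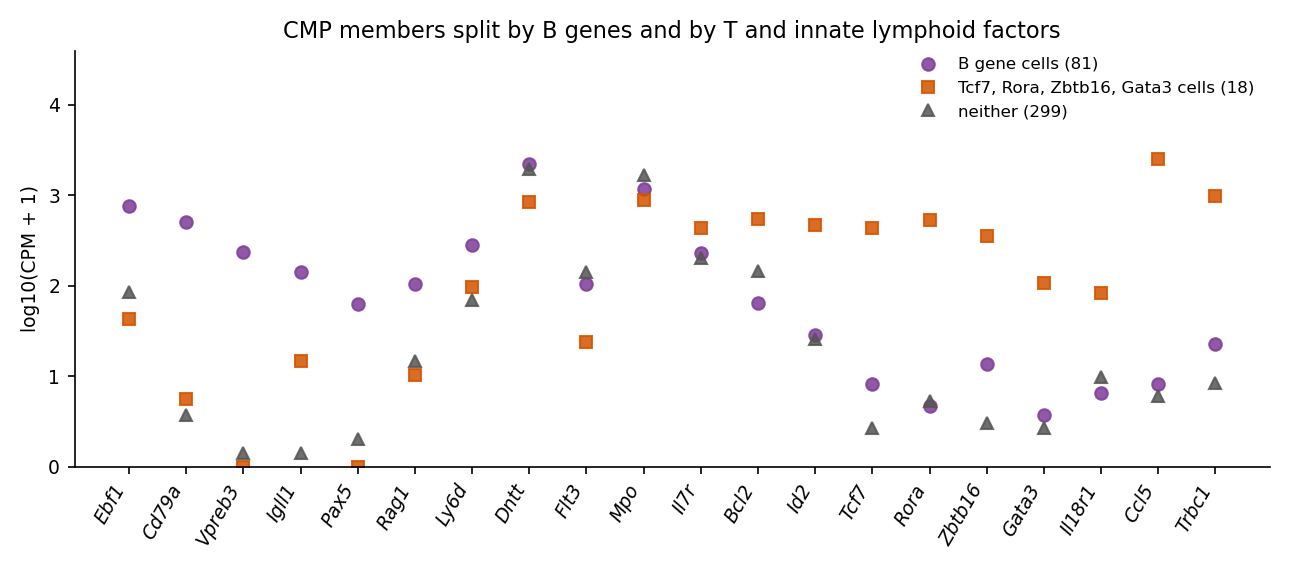
Levels of 20 genes, as log10(CPM + 1) of summed UMIs, in CMP members with at least 2 B gene UMIs (81 cells), with at least 3 UMIs over Tcf7, Rora, Zbtb16 and Gata3 (18 cells, 1 shared with the first) and with neither (299 cells). The genes that define the first 2 sets are high in them by construction; Dntt and Mpo were detected in each set, while Ccl5 and Id2 stand out in the 18 cells.

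The interleukin-7 signalling list held 15 genes, the receptor chain genes Il2rg and Crlf2 among them. Of the 15, 11 reached 20 CPM and 0 passed 2-fold in either direction against remaining cells. That share was near that of all genes (2.92% higher and 2.20% lower). Bcl2 read 142 against 75.5 CPM, Pim1, a kinase induced by cytokine signals, 338 against 382 CPM, and Stat5a, a signal transducer of the receptor, 23.9 against 39.4 CPM. Among 25 lineage factors at 20 CPM or more, 3 were past 2-fold higher (Ets1, Id2 and Irf8) and 3 lower (Ikzf2, Cebpa and Tal1). Sox4 was at 804 against 709 CPM and Myb at 253 against 254 CPM. Of 5 genes of V(D)J recombination, Rag1 alone passed 2-fold, and Rag2 was at 18.8 against 0.897 CPM, under the 20 CPM limit.

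Transcripts of the sorting antigens were also compared. Kit read 33.2 CPM in members, 61.1 in Dntt cells and 65.7 in remaining cells. Cd34 read 263, 402 and 248 CPM in that order. Ly6a, which encodes Sca-1, read 2.13, 1.75 and 0.814 CPM, and 13.9 CPM in LMPP cells of the same rule. Fcgr3, one of the CD16/32 genes, read 6.71 CPM in members and 11.1 in remaining cells. Itgam, Cd4 and Cd8a did not reach 20 CPM.

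Mitotic transcripts read higher in members, mostly by less than 2-fold. All 18 listed G2M genes read higher in members than in remaining cells, by a median log2 ratio of 0.81, and 1 of them, Ube2c, passed 2-fold (279 against 137 CPM). As a share of summed UMIs the list made up 0.259% in members, 0.164% in Dntt cells and 0.152% in remaining cells. In this share Il7r-only and Ebf1 members were alike at 0.259% and 0.258%. Median cells stood closer, at 0.0494%, 0.0405% and 0.0372% in members, Dntt cells and remaining cells. The upper quartiles were 0.332%, 0.121% and 0.108%, so the difference lay mainly in the upper part of the cells. The 18 S phase genes summed to 0.224%, 0.214% and 0.207% in the 3 sets, and 0 of them passed 2-fold. Immediate early genes were lower in members, at 0.395% of UMIs against 0.550% and 0.638%, and 4 of 13 were past 2-fold lower against remaining cells, with Egr1 at 95.3 against 247 CPM. Ribosomal protein genes made up 29.9%, 30.4% and 30.7% of UMIs.

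When the rule was applied in LMPP, 179 of 6330 genes (2.83%) were at least 2-fold higher and 176 (2.78%) at least 2-fold lower in its 361 cells than in the remaining LMPP cells. Of the 169 genes past 2-fold higher in CMP members other than Il7r and Ebf1, 151 reached 20 CPM in LMPP. There 149 had the same sign and 88 passed 2-fold. Of the 129 lower genes, 87 reached 20 CPM, all 87 with the same sign and 72 past 2-fold. Across 5549 genes the log2 ratios of the 2 libraries had r = 0.838 and rho = 0.577, a description across genes, which share depth and the rule's sorting of cells. Ly6d (95.7-fold), Cd79a (82.3-fold) and Vpreb3 (96.9-fold) were as extreme in LMPP. Mpo was again close between the sets, at 423 against 532 CPM. G2M genes were more distinct there, with 13 of 18 past 2-fold higher in LMPP cells of the rule.

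**Figure D5:**
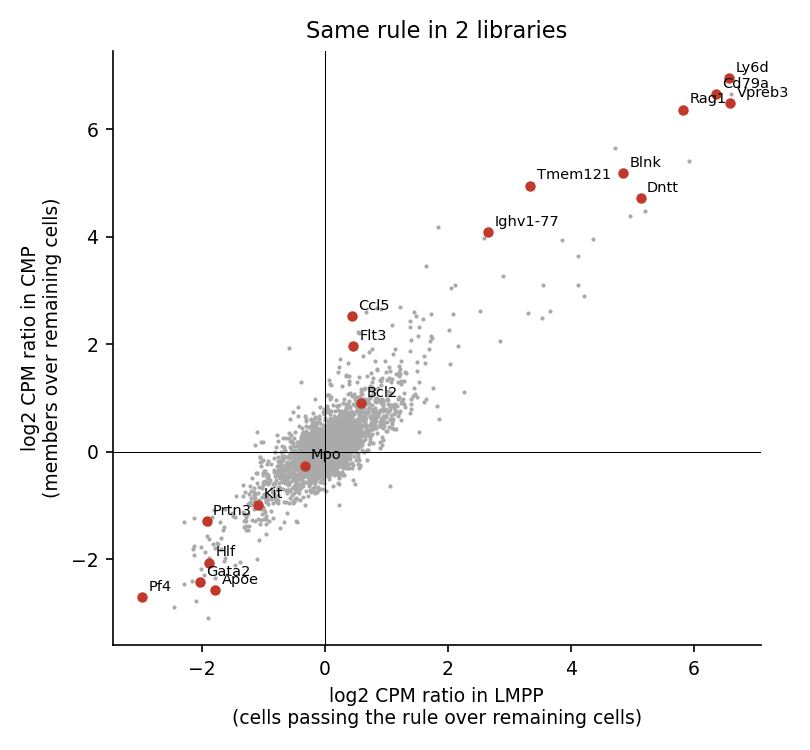
Log2 CPM ratio of cells passing the rule over remaining cells for each of 5549 genes, in LMPP (horizontal) and CMP (vertical), with 18 genes labelled. B lineage and early lymphoid genes lie at the upper right in both libraries, Pf4, Hlf and Gata2 at the lower left, and Mpo near the origin.

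CMP members and LMPP cells of the rule were also set side by side. Of 6208 genes, 58 (0.934%) were at least 2-fold higher in CMP members and 212 (3.41%) at least 2-fold lower. Of 9 B lineage genes 0 passed 2-fold, near the share of all genes, with Cd79a at 92.2 and 84.4 CPM and Ighm at 459 and 355 CPM. Dntt read 1971 and 1491 CPM and Flt3 129 and 162 CPM. Of 16 lymphoid-primed genes 2 were past 2-fold lower in CMP members, Ly6d (105 and 210 CPM, just past the limit) and Rag2 (18.8 and 40.9 CPM). Of 10 granulocyte-monocyte genes 3 were past 2-fold higher and 1 lower, and over the 15 listed 10 read higher and 5 lower. Mpo read 1576 CPM in CMP members and 423 in LMPP cells (3.72-fold, 3.57 to 3.89), and Irf8, a factor of monocyte and dendritic fate, 266 and 72.1 CPM. Over all cells Mpo read 1892 CPM in the CMP library and 523 in the LMPP library, so the libraries as wholes differed by a similar ratio. Arl2bp (62.6 and 7.55 CPM), Apoe (96.0 and 21.9 CPM), Alad (162 and 46.3 CPM), Cdkn1a (217 and 65.8 CPM) and Slpi (59.6 and 18.1 CPM) were also higher. Hlf (16.4 and 147 CPM), Fosb (103 and 588 CPM), Klf2 (71.4 and 297 CPM), Klf6 (65.8 and 277 CPM) and Bst2 (16.9 and 83.9 CPM) were lower in CMP members. S100a8 and S100a9 were lower too, at 0.491 and 62.5 CPM and at 1.47 and 80.0 CPM, and their levels in remaining cells were 10.3 and 12.3 CPM in CMP against 841 and 923 in LMPP. Cd74, the class II invariant chain, read 4.26 and 55.6 CPM, but 1 LMPP cell held 54.4% of its UMIs, and without it the LMPP level was 25.4 CPM. Sorted population and library cannot be told apart in these values.

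The 15 GMP cells that passed the rule differed from the CMP members. Their median depth was 2190, 8336 and 2376 UMIs in the 3 libraries, against library medians of 11152, 13267 and 15464. Among 12594, 57547 and 18565 UMIs in all, they held 24, 19 and 41 of Cd79a and 3, 7 and 8 of Dntt. CMP members held 563 of Cd79a and 12033 of Dntt among 6106272. Cd79a counts thus exceeded Dntt counts in the GMP cells, and the reverse held in CMP members. Flt3 gave 0, 2 and 0 UMIs in the GMP cells. Low counts prevent further comparison.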

How the data were processed

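The files were the deposited UMI counts of 10x 3′ v3 single-cell libraries (raw counts, 55450 gene identifiers). Per the submitters' processing notes, Cell Ranger 3.1.0 and Seurat 3.1.1 were used, while the file headers name Cell Ranger 6.1.1; the aligner settings are not given in the sources used here. Cell limits were applied as stated in the report, UMIs of each set were summed, and ratios of CPM carry exact conditional binomial 95% intervals. Shares carry Clopper-Pearson intervals. Cells were thinned at random to 5000 or 3000 UMIs. Doublet-like cells were marked by simulated doublets (30 components, 0.8% per 1000 barcodes) and kept in the results given. The ratio step was tested on simulated data. Named genes had at least 50 CPM, a ratio of at least 2 and an interval without 1. The 12 highest and 8 lowest were taken, or 8 and 8 for the Ebf1 split and the LMPP comparison. Predicted and mitochondrial genes were left out. Up to 5 genes of each of 20 lists and the gate genes were added. Rag2, Ms4a1, Cd3e, Cd3g, Siglech, Il18r1, Pax5, Foxo1 and Lmo2 fall outside this rule and were chosen after their values were seen. The same holds for the 4-factor split and the genes named for it, among them Thy1, Icos and Il2rb. Members and lists were chosen with earlier results of these data known. Python 3.11.15, numpy 2.4.6 and scipy 1.17.1 were used.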

Additional observations from a re-analysis of the deposited data

How the results depend on the processing

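No paired analysis was possible because the CMP and LMPP groups have 1 library each and share no replicate number beyond 1. The limits are those of single libraries: counting intervals say nothing of mice or sorts, and genes of few UMIs rest on few cells. The share of CMP cells passing the rule was 10.4% with 1 UMI, 4.12% with 3 UMIs, 2.92% at 5000 UMIs and 1.91% at 3000 UMIs, and in LMPP 9.47%, 3.41%, 2.71% and 1.65%. With 1 UMI the GMP libraries gave 0.559%, 1.17% and 1.3%; at 5000 UMIs they gave 0.0122%, 0.0108% and 0.0133% (1 cell each), and at 3000 UMIs 0.0115%, 0.0418% (4 cells) and 0.0130%. Counts of genes past 2-fold higher and lower followed the CPM limit. Against remaining cells they were 382 and 304 at 5 CPM, 75 and 56 at 50 CPM, and 302 and 208 with cells thinned to 5000 UMIs. Against Dntt cells they were 161 and 97, 25 and 18, and 115 and 88. In LMPP they were 325 and 507 at 5 CPM, 91 and 82 at 50 CPM, and 333 lower after thinning. Between CMP and LMPP cells of the rule they were 149 and 694, 24 and 70, and 219 and 406. For Ebf1 against Il7r-only members they were 218 and 111, 25 and 6, and 341 and 352, with 82 and 38 by the mean over cells, 24 lower without doublet-like cells and 22 lower with 3 UMIs. At 3000 UMIs, Mpo was detected in 90.4% of members, Dntt in 90.2% and Flt3 in 29.0%; unthinned, Mpo was in 98.2%, Flt3 in 70.0% and 2 or more B gene UMIs in 20.4%. Many named genes changed in the size of their ratio. With cells thinned to 5000 UMIs, 56 moved and 34 stayed the same against remaining cells. Against Dntt cells 51 moved and 39 stayed, and for the Ebf1 split 11 moved and 3 stayed. By the mean over cells 39 moved and 51 stayed against remaining cells. Among named genes 1 changed sign: Trbc2 in members against Dntt cells, at a log2 ratio of -0.00487 with cells thinned to 5000 UMIs. The cause was not tested. Removing the cell with the most UMIs, added after seeing the data, left Ccl5 at 4.85-fold against Dntt cells and Pf4 at 13.5-fold lower against remaining cells. The Mpo level of members with 10 or more B gene UMIs without its top cell (525 CPM against 946) was also chosen after seeing the data.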
